A study of Mus musculus with 28 samples.

Results

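The 10 genes described here were grouped as products and regulators of the mucous (goblet) cell of the airway. They include the mucins Muc5ac, Muc5b and Muc4, the mucin-folding protein Agr2 and the anion exchanger Slc26a4. The others are the transcription factors Spdef and Foxa3 and the secreted proteins Tff2, Bpifa1 and Bpifb1. Which cells made these transcripts was not tested, and some are not particular to goblet cells. The genes were found by matching Ensembl gene identifiers to symbols, and all 10 were among the 35880 identifiers of the table. Messenger RNA of lung homogenates was sequenced from male wild-type C57BL/6 mice, an inbred laboratory strain, aged 8 weeks in one label and 8 to 12 weeks in another. The mice breathed air (sham), carbon black at 10 mg/m3 (CB, a powder of nearly pure carbon), ozone at 2 ppm (O3, an oxidant gas), or both (CB-O3, co-exposure). An exposure lasted 3 hours, and its length is not stated for sham. Day 1 groups had 1 exposure and 4 libraries each, and day 4 groups had 4 daily exposures and 3 libraries each, 28 libraries in 8 groups. The labels do not say that each library is a separate mouse, so the spread behind the p-values is that of these libraries and may be technical, and the day cannot be told apart from the number of exposures.

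Mucus is a gel of secreted mucins that traps inhaled particles and is moved out by cilia. Muc5b is made by secretory cells of the healthy mouse airway, whereas Muc5ac is known as the mucin of goblet cells that appear under allergic or irritant stimuli. Spdef and Foxa3 act together in turning secretory cells into goblet cells, in which Agr2 helps mucins fold in the endoplasmic reticulum and Slc26a4 (pendrin) exchanges chloride for bicarbonate at the cell surface.

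The library totals lay between 5135492 and 9718770 estimated counts. Levels are given as CPM, counts per 1000000 counts of the library after scaling between libraries. Differences are log2 fold changes ± standard error (SE) from edgeR's quasi-likelihood test over 14887 genes, called at a Benjamini-Hochberg adjusted p under 0.05. The filter on low counts kept 9 of the 10 genes and removed Foxa3. Where groups are said not to overlap, this describes their libraries only. The share of all genes without overlap was not computed. Groups can separate without a call, as those of Muc5ac and Spdef did for carbon black against sham at day 4. Transcripts of skeletal muscle were high in 4 libraries: Acta1, its actin, stood at 607 CPM in sham day 1 replicate 2, 269 in ozone day 1 replicate 2, 123 in carbon black day 4 replicate 3 and 215 in co-exposure day 4 replicate 3. Acta1 was at most 2.85 CPM in the other libraries. The club cell marker Scgb1a1, which defines bronchiolar epithelium, was high in every library (17399 to 53072 CPM). Results that differ without these 4 are given beside the main value, an alternative chosen after seeing the data. A homogenate averages over all cells, so fewer cells of a type and less RNA per cell cannot be told apart.

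Slc26a4 and Muc4 rose in all 4 comparisons of ozone or co-exposure with sham, and Agr2 in 3 of them. At day 1 ozone raised 3 of the 9 genes tested (Muc5b, Muc4 and Slc26a4) and co-exposure raised 5 (these and Agr2 and Spdef). At day 4 ozone raised 4 (Muc5ac, Muc4, Agr2 and Slc26a4) and co-exposure 3 (Muc4, Agr2 and Slc26a4). No member fell in any of these comparisons. Without the 4 libraries high in Acta1 the counts were 2 and 4 at day 1 and 4 and 3 at day 4. Of all genes tested, 11.4% passed in either direction and 6.81% were higher after ozone at day 1, and 19.2% and 10.1% after co-exposure. At day 4 the shares were 20.7% and 11.7% after ozone, and 34.1% and 17.7% after co-exposure. The median log2 fold change of the 9 genes was 0.52, 0.81, 1.00 and 1.32 in these comparisons, in the same order. Medians over all genes lay between -0.01 and 0.00, where the scaling between libraries holds them. The members were chosen with earlier results of these data known, so their medians are a description. Carbon black alone raised 0 of 9 at day 1 (edgeR), where 1.66% of all genes passed, 1 member had an unadjusted p under 0.05, and DESeq2 and limma-voom also called 0. It raised 1 of 9 at day 4, where 0.208% of all genes passed.

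**Figure D1:**
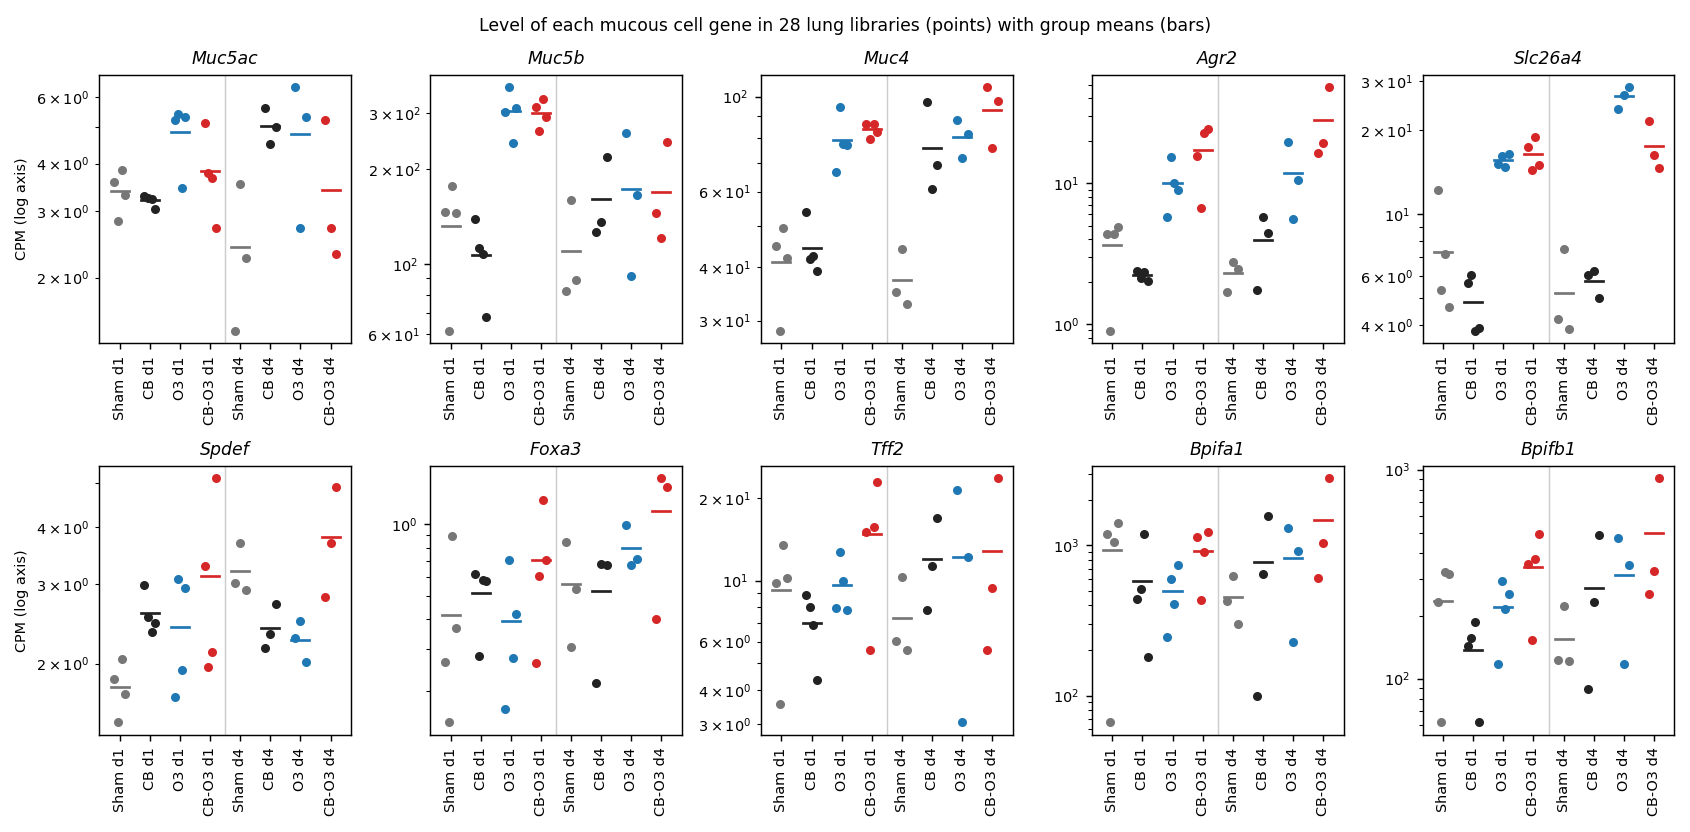
Level of each gene in CPM on a log axis, by exposure and day (d1, d4); points are libraries and bars are group means. Slc26a4 stood at 14.4 CPM or more in all 14 libraries with ozone and at 12.2 CPM or less in the other 14, while Bpifa1 spread from 66.2 to 2805 CPM.

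The sequences just upstream of Slc26a4, Muc4 and Agr2 are shown because these genes rose together, with letters that match a searched motif in capitals. Each runs from 250 to 21 bases before the RefSeq start (build GRCm38.p6), 5′ to 3′ on the strand of the gene.
Slc26a4, chr12:31560005-31560234 (- strand): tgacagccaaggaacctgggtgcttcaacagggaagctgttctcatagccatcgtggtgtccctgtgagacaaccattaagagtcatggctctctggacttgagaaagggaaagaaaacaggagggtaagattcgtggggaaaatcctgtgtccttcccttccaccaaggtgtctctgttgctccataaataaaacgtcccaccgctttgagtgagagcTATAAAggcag
Muc4, chr16:32735636-32735865 (+ strand): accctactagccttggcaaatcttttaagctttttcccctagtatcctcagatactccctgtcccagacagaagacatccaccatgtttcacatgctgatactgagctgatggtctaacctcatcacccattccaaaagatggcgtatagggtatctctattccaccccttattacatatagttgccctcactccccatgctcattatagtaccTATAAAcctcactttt
Agr2, chr12:35992675-35992904 (+ strand): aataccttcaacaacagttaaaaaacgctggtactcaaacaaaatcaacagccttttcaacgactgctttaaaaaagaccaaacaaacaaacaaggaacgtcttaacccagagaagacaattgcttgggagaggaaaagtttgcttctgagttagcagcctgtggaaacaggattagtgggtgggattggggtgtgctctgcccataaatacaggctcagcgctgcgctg

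A TATA box (TATAAA, bound by the general transcription machinery) lay 31 to 26 bases before the start of Slc26a4 and 36 to 31 bases before that of Muc4. These were the capitals shown, and the Agr2 window held no match. The TATA letters were in 11.8% of all 32851 RefSeq promoter windows of this length, and in the windows of 4 members, Muc4, Slc26a4, Foxa3 and Bpifa1. Both strands were searched for 10 motifs. AP-1 (TGANTCA), the antioxidant response element core (TGACNNNGC), STAT6 (TTCNNNNGAA), STAT (TTCNNNGAA), FOXA (TGTTTAC), ETS (CCGGAA), the SPDEF-type ETS site (CCGGAT), NKX2-1 (CAAGTG) and C/EBP (TTGCNNAA) were not in the windows of these 3 genes. They were in 6.34%, 9.19%, 5.40%, 6.48%, 2.91%, 10.3%, 4.44%, 10.9% and 9.05% of all windows, in that order. The ETS forms share most letters, as do the STAT forms, and AP-1 shares its first letters with the antioxidant core. A match is a string of letters and does not show binding. Windows were matched by symbol for 7 members, and Muc5ac, Muc5b and Tff2 were not analysed here in this respect.

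Slc26a4 (ENSMUSG00000020651, chromosome 12, 31519827 to 31559969, minus strand) encodes pendrin. Its level was 12.2, 5.34, 7.17 and 4.66 CPM in the 4 day 1 sham libraries and 4.21, 7.53 and 3.87 CPM at day 4. After ozone it was 15.2, 16.2, 14.8 and 16.4 CPM at day 1 and 23.9, 26.8 and 28.6 CPM at day 4. Every ozone library lay above every sham library of its day. After co-exposure the values were 17.3, 14.4, 18.9 and 15.0 CPM at day 1 and 21.5, 16.3 and 14.7 CPM at day 4, also without overlap with sham. Carbon black gave 5.66, 6.06, 3.81 and 3.90 CPM at day 1 and 6.06, 6.28 and 5.0 CPM at day 4, within or near the sham range.

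Against sham, Slc26a4 rose by 1.09 ± 0.22 after ozone at day 1 (adjusted p = 0.00173, edgeR) and by 2.37 ± 0.26 at day 4 (adjusted p = 3.39e-07). The rise after ozone was larger at day 4 than at day 1 by 1.28 ± 0.34 (adjusted p = 0.0309), and 4.24% of all genes passed in that comparison. The day difference missed the threshold when any of 7 libraries was left out, namely sham day 1 replicate 1, sham day 4 replicates 1 and 3, ozone day 1 replicates 1 and 3 or ozone day 4 replicates 2 and 3. Among these the adjusted p ran from 0.0509 (1.25, without ozone day 1 replicate 3) to 0.113 (1.09, without sham day 4 replicate 3), and the lowest difference was 0.92, without sham day 1 replicate 1. It also missed in a fit of sham and ozone alone (adjusted p = 0.0547). After co-exposure the gene rose by 1.16 ± 0.22 at day 1 (adjusted p = 0.000567) and by 1.78 ± 0.26 at day 4 (adjusted p = 1.09e-05).

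Muc4 (ENSMUSG00000079620, chromosome 16, 32735886 to 32782391) encodes a mucin anchored in the cell membrane. It stood at 44.7, 28.3, 49.3 and 42.0 CPM in day 1 sham libraries and at 35.0, 44.1 and 32.8 CPM at day 4. After ozone it was 66.8, 94.5, 77.6 and 77.2 CPM at day 1 and 88.2, 71.9 and 81.6 CPM at day 4. After co-exposure it was 86.4, 79.7, 86.5 and 82.8 CPM at day 1 and 105, 76.0 and 97.6 CPM at day 4. None of these groups overlapped with sham of its day, a description without a share over all genes beside it. Muc4 rose by 0.94 ± 0.16 after ozone (adjusted p = 0.000232, edgeR) and 1.03 ± 0.16 after co-exposure at day 1 (adjusted p = 4.93e-05). At day 4 the rises were 1.12 ± 0.18 (adjusted p = 6.52e-05) and 1.32 ± 0.18 (adjusted p = 3.50e-06).

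Muc4 was also the member that passed after carbon black. Its level was 53.6, 41.8, 42.5 and 39.2 CPM at day 1, inside the sham range but for 1 library, and 97.4, 60.9 and 69.2 CPM at day 4, above all day 4 sham libraries. The change was 0.11 ± 0.16 at day 1 and a rise of 1.02 ± 0.18 at day 4 (adjusted p = 0.00838, edgeR). This call was lost without sham day 4 replicate 1 (adjusted p = 0.0576), sham day 4 replicate 3 (0.123) or carbon black day 4 replicate 1 (0.0915), at log2 fold changes of 0.98, 0.93 and 0.81. It was also lost in a fit of carbon black and sham of day 4 alone (adjusted p = 0.208, edgeR). Carbon black day 4 replicate 1 held the most Muc4 of its group. Its total (5135492 estimated counts) and its scaling factor (0.902) were the lowest of all libraries. The change between days, 0.91 ± 0.24, did not pass (adjusted p = 0.221), and 0.094% of all genes passed in that comparison.

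Agr2 (ENSMUSG00000020581, chromosome 12, 35992907 to 36004087) encodes a protein disulfide isomerase that mucins need for folding. Sham libraries held 4.37, 0.890, 4.36 and 4.91 CPM at day 1 and 1.68, 2.77 and 2.47 CPM at day 4. Ozone gave 5.74, 15.3, 9.96 and 8.97 CPM at day 1 and 19.5, 5.53 and 10.5 CPM at day 4. Co-exposure gave 15.5, 6.67, 22.7 and 24.1 CPM at day 1 and 16.4, 19.2 and 48.4 CPM at day 4. All 14 libraries with ozone lay above the sham libraries of their day, with large spread among themselves.

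Agr2 rose by 2.23 ± 0.48 after co-exposure at day 1 (adjusted p = 0.00229, edgeR) and by 3.6 ± 0.59 at day 4 (adjusted p = 5.64e-05), a fold of 12.1. Without co-exposure day 4 replicate 3, a library with muscle transcripts, the day 4 rise was 2.95. After ozone its change was 1.45 ± 0.49 at day 1, where it did not pass (adjusted p = 0.0562), and it rose by 2.35 ± 0.59 at day 4 (adjusted p = 0.00633). The day 1 ozone value was 0.86 without the 4 libraries high in Acta1, and it passed without ozone day 1 replicate 1 (1.64, adjusted p = 0.0439). The day 4 ozone call was lost without ozone day 4 replicate 1 (1.79, adjusted p = 0.0515). Carbon black gave 2.37, 2.11, 2.35 and 2.02 CPM at day 1 and 1.73, 5.74 and 4.46 CPM at day 4, and did not pass at either day.

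**Figure D2:**
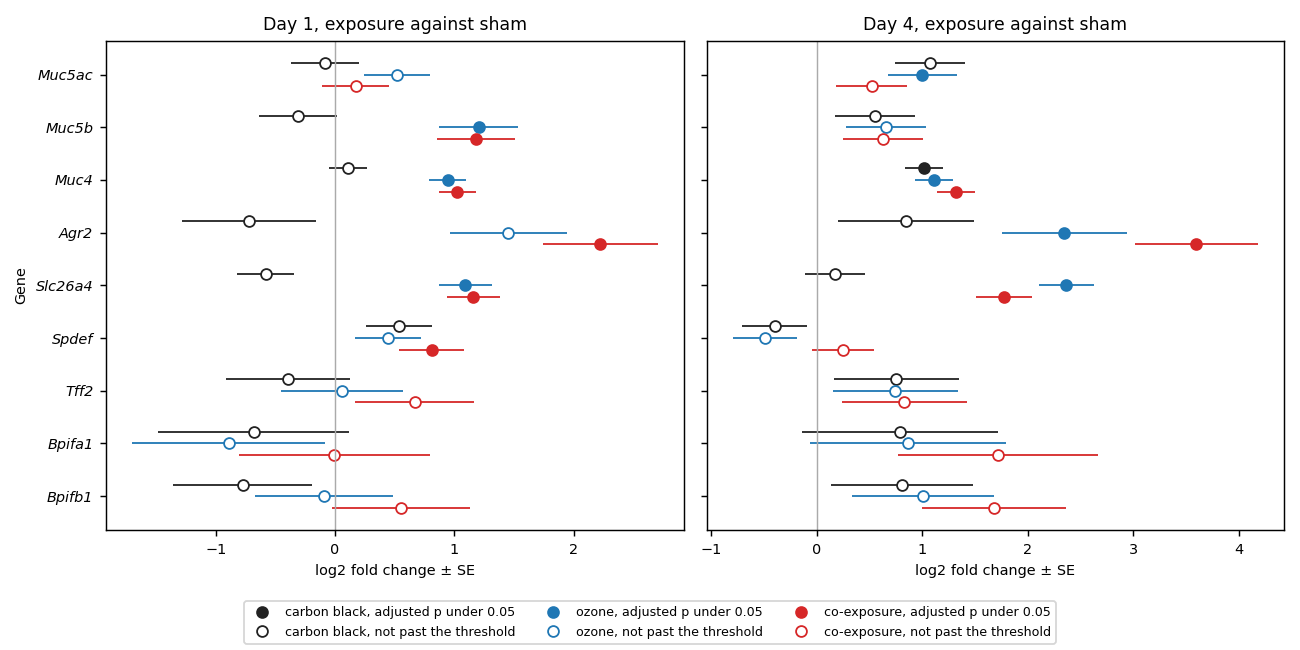
Log2 fold change against sham of the same day (horizontal axis, ± SE) for the 9 genes tested; filled points have an adjusted p under 0.05. Slc26a4 and Muc4 are filled in all 4 comparisons with ozone, Agr2 in 3, and Bpifa1 has SEs from 0.80 to 0.95.

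Muc5b (ENSMUSG00000066108, chromosome 7, 141839070 to 141873084) encodes the secreted mucin of the healthy airway. Sham libraries held 146, 61.3, 177 and 145 CPM at day 1. After ozone the day 1 values were 304, 365, 242 and 312 CPM, and after co-exposure 315, 263, 332 and 292 CPM, all above every sham value. Muc5b rose by 1.20 ± 0.33 after ozone (adjusted p = 0.0198, edgeR) and by 1.18 ± 0.33 after co-exposure (adjusted p = 0.0147). The ozone call was lost without the 4 libraries high in Acta1 (0.87, adjusted p = 0.0826). It was also lost without sham day 1 replicate 2 (0.97, adjusted p = 0.0592), ozone day 1 replicate 2 (1.11, adjusted p = 0.0531) or ozone day 1 replicate 4 (1.19, adjusted p = 0.0524).

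At day 4 the Muc5b groups overlapped. Sham stood at 82.0, 159 and 89.1 CPM, ozone at 261, 91.5 and 166 CPM and co-exposure at 145, 121 and 243 CPM. The day 4 changes of 0.65 ± 0.38 and 0.63 ± 0.38 did not pass (adjusted p = 0.240 and 0.212, edgeR). Carbon black gave 139, 112, 108 and 68.1 CPM at day 1 and 127, 136 and 219 CPM at day 4. Neither the ozone nor the co-exposure change differed between days past the threshold (-0.55 ± 0.50 for both).

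Muc5ac (ENSMUSG00000037974, chromosome 7, 141788972 to 141819231) lies beside Muc5b and was read from 12 to 46 counts per library. Sham libraries held 3.57, 2.82, 3.84 and 3.31 CPM at day 1 and 1.44, 3.53 and 2.26 CPM at day 4. Ozone gave 5.23, 5.43, 3.46 and 5.33 CPM at day 1 and 6.39, 2.71 and 5.32 CPM at day 4, so that 1 library of each ozone group lay in the sham range. Muc5ac rose by 1.00 ± 0.33 after ozone at day 4 (adjusted p = 0.0303, edgeR), and its day 1 change of 0.52 ± 0.28 did not pass (adjusted p = 0.246). The day 4 call was lost with replicate number as a block (adjusted p = 0.0517), with only the compared groups (0.0712), and without sham replicate 1 (0.149), sham replicate 3 (0.0951), ozone replicate 1 (0.172) or ozone replicate 3 (0.0984) of day 4.

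Co-exposure left Muc5ac at 5.12, 3.79, 3.67 and 2.71 CPM at day 1 and at 5.20, 2.70 and 2.30 CPM at day 4, overlapping sham (0.17 ± 0.28 and 0.52 ± 0.34). Carbon black gave 3.29, 3.24, 3.22 and 3.03 CPM at day 1. At day 4 it gave 5.63, 4.51 and 5.0 CPM, all above sham, yet the difference of 1.08 ± 0.33 did not pass over all genes (adjusted p = 0.136).

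Spdef (ENSMUSG00000024215, chromosome 17, 27714352 to 27728955, minus strand), an ETS-family factor needed for goblet cells, was read from 10 to 36 counts per library. Sham stood at 1.85, 1.48, 2.05 and 1.72 CPM at day 1 and at 3.01, 3.69 and 2.90 CPM at day 4. The shams of the 2 days did not overlap, but their difference of 0.83 ± 0.29 did not pass (adjusted p = 0.502, edgeR). Between the sham groups 0% of all genes passed, and 1 member had an unadjusted p under 0.05. Co-exposure gave 3.28, 1.97, 2.12 and 5.13 CPM at day 1, a rise of 0.81 ± 0.27 (adjusted p = 0.0380), in which 2 of 4 libraries lay in or just above the sham range. That call was lost in DESeq2 (adjusted p = 0.0667) and without co-exposure day 1 replicate 4 (0.47, adjusted p = 0.249). It was lost too without sham day 1 replicate 1, 2 or 4 (adjusted p = 0.0678, 0.102 and 0.0748, edgeR), co-exposure day 1 replicate 1 (0.0742) or the 4 libraries high in Acta1 (0.1). Ozone gave 1.69, 3.07, 1.94 and 2.94 CPM at day 1 and 2.27, 2.48 and 2.01 CPM at day 4, the latter all below sham (-0.49 ± 0.31, adjusted p = 0.274). At day 4 co-exposure gave 2.80, 3.69 and 4.89 CPM, overlapping sham. Carbon black gave 2.99, 2.54, 2.35 and 2.46 CPM at day 1, all above sham of that day, and 2.16, 2.32 and 2.70 CPM at day 4, all below it, and neither change passed (0.54 ± 0.28 and -0.40 ± 0.31, adjusted p = 0.523 and 0.556).

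Foxa3 (ENSMUSG00000040891, chromosome 7, 19013284 to 19023538, minus strand), the partner factor of Spdef, had 1 to 11 counts per library and 0.148 to 1.56 CPM. Its group means ran from 0.393 ± 0.234 CPM after ozone at day 1 (SD, n = 4) to 1.13 ± 0.638 CPM after co-exposure at day 4 (SD, n = 3). Fitted with no filter, its largest change against sham was 0.94 ± 0.63 after co-exposure at day 4 (adjusted p = 0.359, edgeR). The SEs of its changes against sham were 0.59 to 0.68, and changes of the size fitted were not detectable at this depth.

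Tff2 (ENSMUSG00000024028, chromosome 17, 31141049 to 31144282, minus strand) encodes a small trefoil peptide secreted with mucins. It spread from 3.05 to 23.6 CPM, and both ends were day 4 libraries with ozone. At day 1 sham held 9.79, 3.56, 13.5 and 10.2 CPM, ozone 7.93, 12.7, 9.96 and 7.85 CPM and co-exposure 15.0, 5.61, 15.7 and 22.8 CPM. These groups overlapped, with the lowest sham value in the library with the most Acta1. Ozone at day 4 gave 21.4, 3.05 and 12.2 CPM and co-exposure 5.6, 9.37 and 23.6 CPM, against 6.01, 10.3 and 5.59 CPM in sham. The changes were 0.75 ± 0.59 and 0.83 ± 0.59, and no Tff2 comparison with sham passed (adjusted p from 0.296 to 0.962, edgeR).

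Bpifa1 and Bpifb1, neighbours on chromosome 2, encode secreted proteins with the fold of the bactericidal/permeability-increasing protein that bind lipids in airway fluid. The upstream sequences of both are shown because their levels moved together from library to library, in the same frame as above (RefSeq, GRCm38.p6). RefSeq gives a second start for Bpifb1, whose window is not shown.
Bpifa1, chr2:154142630-154142859 (+ strand): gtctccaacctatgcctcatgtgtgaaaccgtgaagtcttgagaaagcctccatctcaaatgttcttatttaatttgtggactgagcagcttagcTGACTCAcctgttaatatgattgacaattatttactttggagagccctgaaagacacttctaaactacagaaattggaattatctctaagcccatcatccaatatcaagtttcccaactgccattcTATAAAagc
Bpifb1, chr2:154190568-154190797 (+ strand): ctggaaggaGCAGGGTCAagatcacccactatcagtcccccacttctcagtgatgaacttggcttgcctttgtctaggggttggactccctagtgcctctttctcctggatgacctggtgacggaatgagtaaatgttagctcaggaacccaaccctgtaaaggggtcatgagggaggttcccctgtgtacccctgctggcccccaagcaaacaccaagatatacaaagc

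The capitals mark an AP-1 match 155 to 149 bases before the start of Bpifa1 and a TATA box 29 to 24 bases before it. In the Bpifb1 window they mark the antioxidant response element letters on the opposite strand, 241 to 233 bases before the start. The pair thus shared none of the 10 searched motifs in these windows.

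Bpifa1 (ENSMUSG00000027483, 154142880 to 154149219) was the most abundant member per length of transcript in all 8 groups. Day 1 sham libraries held 1181, 66.2, 1046 and 1411 CPM, so that the library with muscle transcripts stood far below the other 3. Day 4 sham libraries held 426, 625 and 297 CPM. The values after ozone were 246, 600, 410 and 737 CPM at day 1 and 1312, 226 and 921 CPM at day 4. After co-exposure they were 1132, 434, 901 and 1220.1 CPM at day 1 and 604, 1031 and 2805 CPM at day 4. Carbon black gave 437, 508, 1183 and 180 CPM at day 1 and 99.7, 648 and 1575 CPM at day 4. Exposure groups overlapped sham at both days, and none of the changes passed (adjusted p from 0.171 to 0.998, edgeR).

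Bpifb1 (ENSMUSG00000027485, 154190818 to 154220369) ran from 61.7 to 911 CPM. Day 4 co-exposure gave 254, 329 and 911 CPM, all above the day 4 sham values of 123, 222 and 121 CPM. The difference of 1.68 ± 0.68 did not pass in edgeR (adjusted p = 0.0623). It passed in DESeq2 (adjusted p = 0.0372), and was 0.91 without co-exposure replicate 3 (adjusted p = 0.366) and 2.01 without co-exposure replicate 1 (adjusted p = 0.0372). At day 1 sham held 233, 61.7, 325 and 317 CPM, ozone 118, 292, 216 and 254 CPM and co-exposure 353, 153, 373 and 494 CPM, and the groups overlapped. Ozone at day 4 gave 472, 117 and 350 CPM, and carbon black gave 143, 157, 187 and 62.0 CPM at day 1 and 89.4, 233 and 488 CPM at day 4, also overlapping sham. The ratio of Bpifa1 to Bpifb1 in CPM was 1.07 in sham day 1 replicate 2 and 1.12 in carbon black day 4 replicate 1, and from 1.90 to 6.32 in the other libraries.

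Adding carbon black to ozone left no member past the threshold at day 1 or day 4 (co-exposure against ozone, edgeR), and 0% of all genes passed at either day. DESeq2 and limma-voom also called 0 members, and at an unadjusted p under 0.05 there were 0 at day 1 and 3 at day 4. Those 3 were Agr2 at 1.25 ± 0.50, Spdef at 0.74 ± 0.30 and Slc26a4 at -0.59 ± 0.24, each with an adjusted p of 0.173 to 0.179. All 3 passed without co-exposure day 4 replicate 1. For Slc26a4 at day 4 the co-exposure libraries (14.7 to 21.5 CPM) lay below the ozone libraries (23.9 to 28.6 CPM), with a 95% interval of the log2 difference from -1.08 to -0.10. For Muc4 the interval was -0.15 to 0.57 at day 4 and -0.23 to 0.39 at day 1, and for Muc5b it was -0.81 to 0.76 and -0.69 to 0.65.

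Against carbon black alone, co-exposure raised 4 of the 9 genes at day 1, where 25.9% of all genes passed, and 2 at day 4, where 38.2% passed. At day 1 these were Muc5b at 1.49 ± 0.33, Muc4 at 0.92 ± 0.15, Agr2 at 2.95 ± 0.51 and Slc26a4 at 1.74 ± 0.23 (adjusted p from 6.03e-06 to 0.00221, edgeR). At day 4 they were Agr2 at 2.75 ± 0.56 and Slc26a4 at 1.60 ± 0.27. Without co-exposure day 4 replicate 1 the day 4 count was 4, with Muc5ac and Spdef added. These comparisons share their co-exposure libraries with those against sham.

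The interaction asks whether co-exposure differed on the log scale from the sum of the single exposures. No member passed at day 1 or day 4 (edgeR), where 1.46% and 1.37% of all genes did, and 1 and 3 members had an unadjusted p under 0.05. At day 4 the interaction was -1.55 ± 0.46 for Muc5ac (adjusted p = 0.0653) and -0.81 ± 0.25 for Muc4 (adjusted p = 0.0728). Both had higher means after carbon black alone than in sham: 5.04 ± 0.56 against 2.41 ± 1.1 CPM for Muc5ac, and 75.8 ± 19 against 37.3 ± 6.0 CPM for Muc4 (SD, n = 3). DESeq2 called Muc4, and leaving out 1 library in turn called up to 3 members (Muc5ac, Muc4 and Spdef without co-exposure day 4 replicate 1, and Muc5ac and Muc4 without carbon black day 4 replicate 3). Between days, the co-exposure change differed for 0 of 9 members in edgeR, with 0 at an unadjusted p under 0.05, and for 10.2% of all genes.

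Per kilobase of exon sequence, the order of the means in day 1 sham was Bpifa1 at 599, Bpifb1 at 64.8, Tff2 at 15.8, Muc5b at 8.85, Muc4 at 3.49, Agr2 at 2.81, Slc26a4 at 2.36, Spdef at 0.770, Muc5ac at 0.315 and Foxa3 at 0.206 CPM. Neighbours from Bpifa1 down to Slc26a4 overlapped in their libraries, Slc26a4 lay above Spdef and Spdef above Muc5ac without overlap, and Muc5ac and Foxa3 overlapped. At day 4 co-exposure Agr2 ranked 4, at 21.7 CPM per kilobase, overlapping Muc5b and Tff2. Slc26a4 lay above Spdef, without overlap, in all groups other than carbon black at day 1 and sham at day 4.

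The members differed in how tightly the libraries of a group agreed. The coefficient of variation (SD over mean) within groups was 3.88% to 25.2% for Muc4, 4.89% to 46.2% for Slc26a4 and 36.8% to 96.3% for Bpifa1. Deviations of log2 CPM from the group mean were therefore compared between members over the 28 libraries, as a description. Bpifa1 and Bpifb1 deviated together (Pearson r = 0.952, and 0.942 without the 2 farthest libraries), as did Tff2 and Bpifb1 (0.904), Agr2 and Bpifb1 (0.886), Agr2 and Tff2 (0.871) and Muc5b and Bpifb1 (0.844). Slc26a4 shared little of these deviations, with r of 0.10 to 0.12 to Agr2, Tff2, Bpifa1 and Bpifb1 and 0.29 to Muc5b. Its r was 0.42 to Muc5ac and 0.45 to Muc4. The values in a pair share a library and its scaling.

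**Figure D3:**
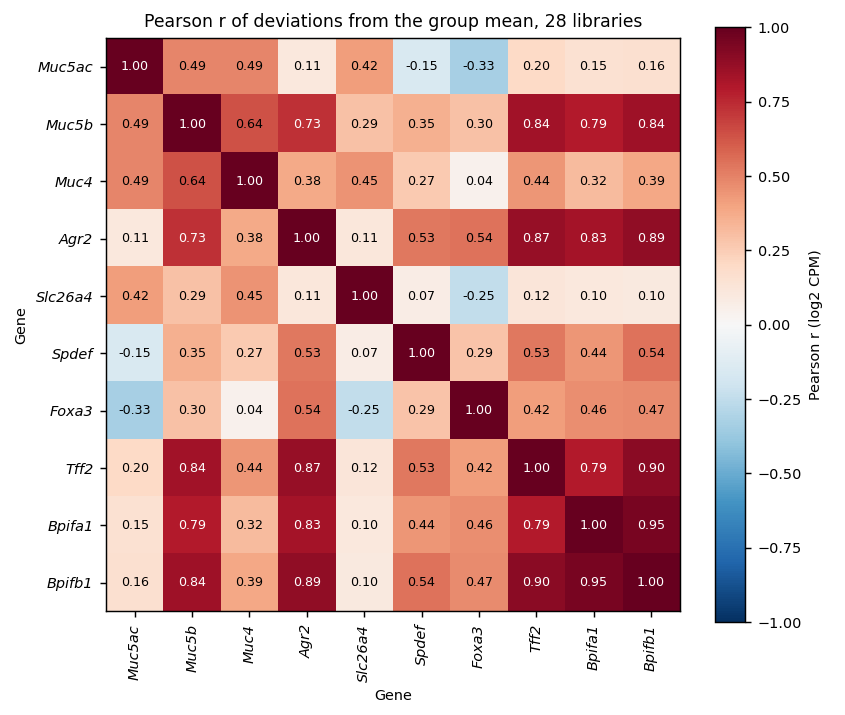
Pearson r between members of log2 CPM deviations from the group mean over 28 libraries, on a colour scale from -1 to 1. Muc5b, Agr2, Tff2, Bpifa1 and Bpifb1 have r of 0.73 or more with each other, and Slc26a4 has at most 0.45 with any member.

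For each tested member the 3 genes with the most similar profile over all 28 libraries were taken from 13668 genes with a mean of at least 2 CPM, again as a description. For Bpifb1 these were Scgb3a1 (r = 0.944), a secretoglobin of secretory cells, Adh7 (0.916) and Reg3g (0.909), an antibacterial lectin. For Bpifa1 they were the water and glycerol channel gene Aqp3 (0.899), Krt15 (0.892), a keratin of basal cells, and Scgb3a1 (0.885). Tff2 was most like Scgb3a1 (0.896), Gm21149 (0.818) and Tmc5 (0.811). Agr2 was most like Gsto1 (0.947), a glutathione transferase, the mucosal chemokine gene Cxcl17 (0.930) and Reg3g (0.929).

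The closest genes to Slc26a4 were Gja1 (0.906), the gap junction gene of connexin 43, Snx7 (0.903) and Hells (0.899), a chromatin remodeller of dividing cells. Their r to Slc26a4 within groups was 0.07, 0.14 and 0.26, so the likeness lay between groups. Muc4 was closest to Kmt5a (0.866), Cxcl17 (0.865) and Golm1 (0.842), and Muc5b to Tacr1 (0.864), Aldh3a1 (0.857) and Cldn2 (0.83). For Muc5ac they were Plekhm2 (0.738), Ythdc2 (0.709) and Sgpp2 (0.690), and for Spdef Tra2a (0.733), Hspb11 (0.709) and Tbx1 (0.698).

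**Figure D4:**
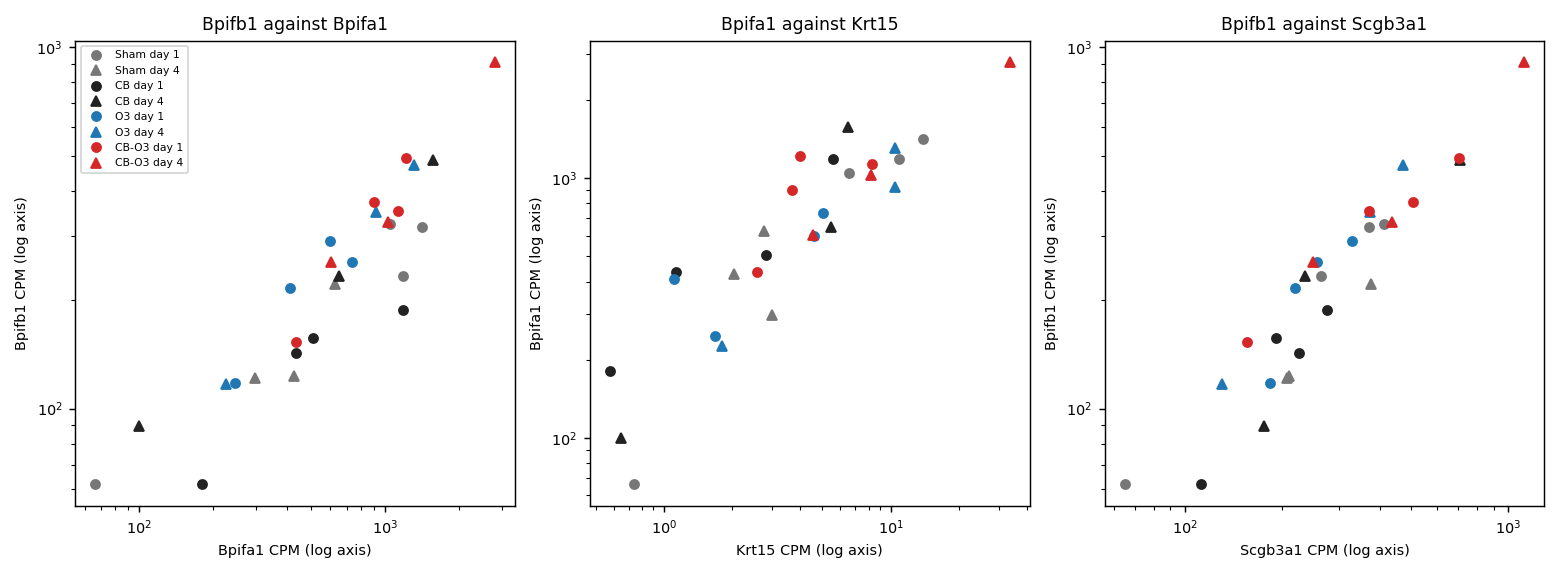
CPM per library on log axes for Bpifb1 against Bpifa1, Bpifa1 against Krt15 and Bpifb1 against Scgb3a1; colour is exposure, circles are day 1 and triangles day 4. Libraries of 1 group spread along the line: Bpifa1 ran from 66.2 to 1411 CPM in day 1 sham and from 604 to 2805 CPM in day 4 co-exposure.

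Markers of other airway cells moved with these levels. The 8 basal cell markers, of which 6 passed the filter, summed to 5.19 to 32.6 CPM in day 1 sham, 3.61 to 15.8 after carbon black, 5.40 to 12.5 after ozone and 10.3 to 20.5 after co-exposure. At day 4 the sums were 8.18 to 10.5, 4.11 to 18.6, 4.29 to 26.0 and 9.74 to 63.3 CPM in the same order. Krt5, which defines basal cells, was at 0 in 3 libraries. Within groups, member deviations were compared with those of the mean log2 CPM of the 6 tested markers, not of the sum. The r was 0.888 with Bpifa1, 0.862 with Bpifb1, 0.775 with Agr2, 0.712 with Muc5b, 0.176 with Muc4 and -0.06 with Slc26a4. The r values of the lists below use the same mean over their tested genes. Basal markers past the threshold numbered 0 of 6 against sham other than day 4 co-exposure, where Krt15 rose by 2.55 ± 0.92 (adjusted p = 0.0364, edgeR). Of all genes, 34.1% passed in that comparison. The part of the basal markers in the results for Agr2, Muc5b, Bpifa1 and Bpifb1 was not tested.

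The club cell list (12 markers, with Scgb3a1 among them) had r of 0.77 with Bpifa1 and 0.82 with Agr2 within groups, and the ciliated list (12 markers) 0.61 and 0.79. In the order ozone and co-exposure at day 1, then at day 4, 3, 3, 1 and 2 club markers were higher and 1, 1, 4 and 3 lower, while 0, 0, 2 and 6 ciliated markers were higher and 1 lower in each. At day 4 the club list summed to 48845 to 64170 CPM in sham, 28397 to 31345 CPM after ozone and 25392 to 56946 CPM after co-exposure, and the ciliated list to 1228 to 1423, 1243 to 1374 and 1456 to 2444 CPM. Most of the club sum was Scgb1a1 (median 31804 CPM over all libraries, against 3745 for Cbr2, the next), so the sum mainly follows that gene. Beside the counts of club and ciliated markers, 11.4%, 19.2%, 20.7% and 34.1% of all genes passed in either direction, in the same order. The part of both lists in the results for Bpifa1 and Agr2 was not tested. The submucosal gland list had r of 0.95 with Bpifa1 and 0.81 with Agr2 within groups. Of its 12 markers 4 passed the low-count filter, namely Ltf (13.6 to 1141 CPM), Lyz1 (153 to 863 CPM), Acta2 (79.0 to 222 CPM) and Azgp1 (2.00 to 9.67 CPM). Dcpp2, Prol1, Pip and Prb1 were at 0 in all 28 libraries, and the part of the list in the results for Bpifa1 and Agr2 was not tested. Of 12 markers of oesophagus and stomach, 3 passed the low-count filter. Their summed level over the list was 3.69 to 5.16 CPM in day 4 sham, 9.26 to 13.5 CPM after ozone and 11.3 to 16.3 CPM after co-exposure at day 4. Pgc, a pepsinogen gene, rose by 2.00 ± 0.37 and 2.42 ± 0.37 and Krt4, a keratin of stratified epithelium, by 4.05 ± 0.88 and 4.32 ± 0.87 in these groups (largest adjusted p = 0.00151, edgeR). Krt4 had 202 counts in all 28 libraries, was at 0 in 7 of them and reached at most 3.74 CPM, so its sizes are poorly measured. Sprr3 was at 0 in all 28 libraries, Gkn1 had 1 count in all, and Atp4a and Atp4b had 2 each. The list had r within groups of 0.61 with Agr2 and -0.23 with Slc26a4, and its part in the day 4 results was not tested.

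Of the other mucins, 4 passed the low-count filter. Muc1, a membrane mucin, rose by 0.50 ± 0.17 after co-exposure at day 1 and by 0.99 ± 0.19 and 1.07 ± 0.19 after ozone and co-exposure at day 4 (adjusted p = 0.0368, 0.000598 and 0.000130, edgeR). Muc20, another membrane mucin, rose by 1.17 ± 0.25 after carbon black at day 4 (adjusted p = 0.0423, edgeR). The Muc4 call rests on the same libraries, so neither call backs the other. It was lost without some single libraries, as given above, and Muc20 was not checked in that way. Muc16 fell by 0.81 after day 4 co-exposure (adjusted p = 0.0454).

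Of 24 tested genes of mucin glycosylation and secretory processing, 2 rose with ozone and 2 with co-exposure at day 1. At day 4 these numbers were 3 and 9, with 1 lower after co-exposure. Of all genes tested, 6.81%, 10.1%, 11.7% and 17.7% were higher in these comparisons, in the same order. Galnt3, which starts O-linked sugar chains, rose in all 4 comparisons, by 0.58 ± 0.12, 0.70 ± 0.12, 0.88 ± 0.14 and 1.18 ± 0.14 in that order (largest adjusted p = 0.00199, edgeR). Gcnt4, a branching transferase, rose at day 4 by 2.73 ± 0.66 and 3.17 ± 0.64. It had 110 counts in all 28 libraries. Its median of 0.279 CPM lay under the depth limit of 3 counts (0.309 to 0.649 CPM), so the size of its rise is poorly measured. Xbp1, a factor of the unfolded protein response, rose by 0.28 ± 0.09 and 0.37 ± 0.09 at day 1 and fell by 0.28 after day 4 co-exposure. Medians of the list were 0.05, 0.06, 0.20 and 0.36.

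In the 4 comparisons with ozone, in that order, 3, 2, 2 and 4 of 9 tested goblet cell products rose. In these, 1, 1, 1 and 0 fell. The shares of all genes that were higher were 6.81%, 10.1%, 11.7% and 17.7%. Dmbt1, a scavenger receptor of mucosal fluids, rose by 2.18 ± 0.66, 2.32 ± 0.66, 4.90 ± 0.81 and 4.48 ± 0.83. It had 198 counts in all 28 libraries, was at 0 in 3 of them and reached at most 4.54 CPM, so these sizes are poorly measured. Pigr, which carries antibodies across epithelium, rose by 1.02 ± 0.19 and 0.97 ± 0.19 at day 1 and by 0.61 ± 0.22 after day 4 co-exposure. Reg3g rose at day 4 by 2.21 ± 0.74 and 2.97 ± 0.76. Tff3, another trefoil peptide gene, was at 0 in all 28 libraries.

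Upstream signals and factors of mucous differentiation moved in both directions. Of 27 tested, 5 rose and 0 fell after ozone at day 1, and 7 and 2 after co-exposure. At day 4 ozone raised 6 and lowered 5, and co-exposure raised 11 and lowered 8. The shares of all genes past the threshold in either direction were 11.4%, 19.2%, 20.7% and 34.1%. Ereg, an EGF receptor ligand, rose by 4.51 ± 0.55 and 4.17 ± 0.55 at day 1 and by 3.28 ± 0.61 and 3.53 ± 0.60 at day 4. Il33, an epithelial alarmin, rose by 1.12 ± 0.17 and 1.26 ± 0.17 at day 1 and by 1.45 ± 0.20 and 1.46 ± 0.20 at day 4. Ereg ran from 0 to 12.1 CPM and was at 0 in 2 libraries. Hey1, a Notch target, fell by 1.06 and 1.36 at day 4. The type 2 cytokine Il13, a known inducer of goblet cells, had 2 counts in all 28 libraries, Il4 had 21, Il5 had 5 and Il9 had 0. Eosinophil peroxidase (Epx) was at 0 in all libraries, but it does not stand for its list of 12 eosinophil, mast cell and type 2 lymphocyte markers. Siglecf ran from 5.27 to 16.4 CPM, Il5ra from 0.263 to 2.90 and Cpa3 from 0 to 3.56. Prg2 was at 0 in 17 libraries and Ccr3 in 10. At day 4 the list summed to 34.6 to 42.1 CPM in sham, 25.8 to 29.2 after ozone and 23.3 to 28.5 after co-exposure.

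Among 12 tested genes of airway ion and fluid transport, the chloride channel gene Ano1 rose at day 4, by 1.16 ± 0.20 with ozone and 0.85 ± 0.20 with co-exposure. Slc12a2, which loads chloride into secretory cells, rose by 0.45 ± 0.09 and 0.31 ± 0.09 at day 1. The list had 1, 2, 3 and 2 genes higher and 0, 1, 0 and 1 lower in the 4 comparisons with ozone. Over all genes, 6.81%, 10.1%, 11.7% and 17.7% were higher. Of 3 tested relatives of Bpifa1 and Bpifb1, the phospholipid transfer protein gene Pltp fell by 0.78, 0.96, 0.65 and 1.17.

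**Figure D5:**
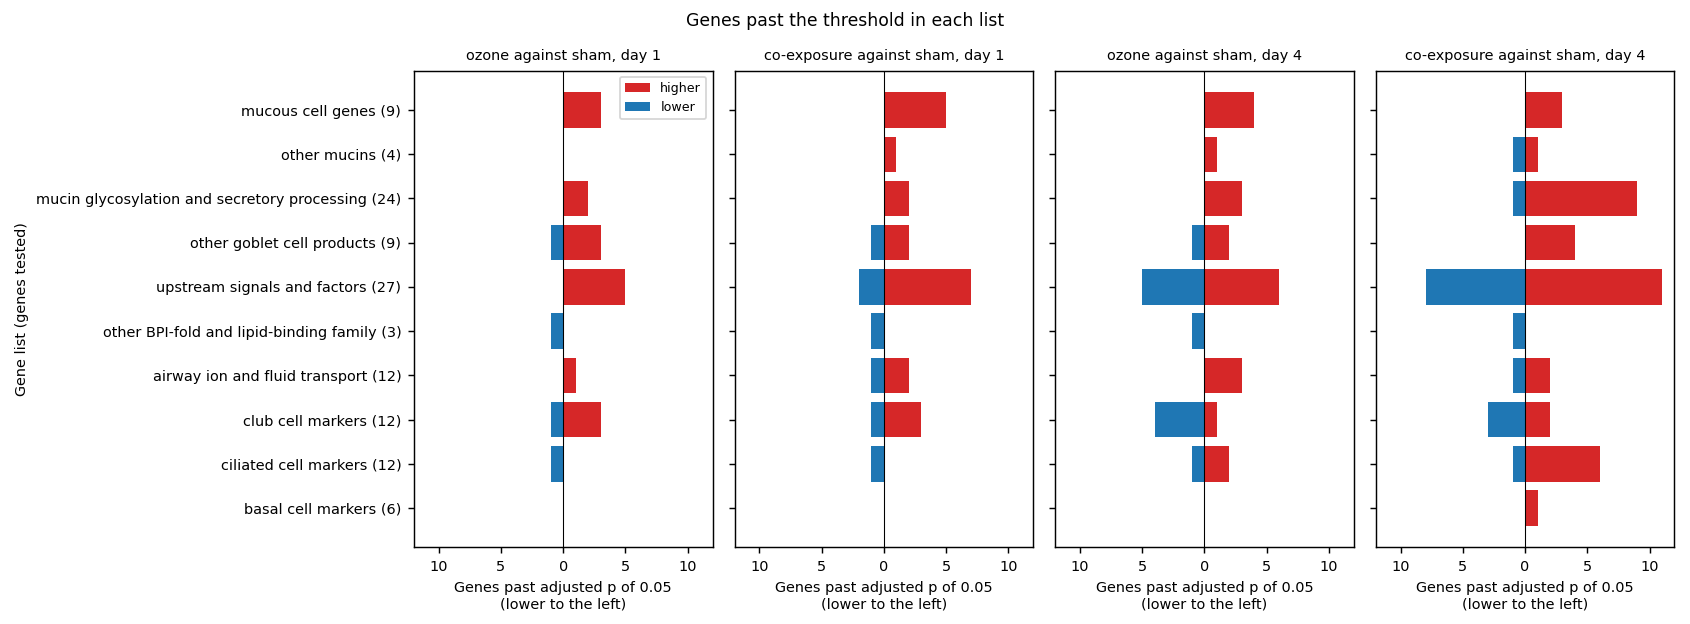
Number of genes past an adjusted p of 0.05 in each list (genes tested in brackets), higher to the right and lower to the left, for ozone and co-exposure against sham at day 1 and day 4. Members of the mucous cell list are all on the right (3, 5, 4 and 3 of 9), while upstream signals and factors lie on both sides at day 4.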

How the data were processed

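Per the labels' protocols, the authors prepared stranded mRNA libraries, read as paired ends of 51 bases, and quantified them with Salmon 1.1.0. The submitters' processing notes name mm10, R 3.6.3 and DESeq2 without their roles. The deposited table holds estimated (expected) counts per gene, not normalized, of which 17.7% are not whole, and they were rounded here. These estimated counts were made by the authors from the reads, per the labels. Reads that match several genes are divided by an estimate.

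Symbols and positions came from GENCODE M21 (GRCm38). The fit used edgeR 4.0.16 in R 4.3.3, the robust quasi-likelihood F test with TMM scaling, filterByExpr (14887 genes) and 28 libraries in a single fit with 20 residual degrees of freedom. It gave 16 comparisons, with Benjamini-Hochberg adjustment over all genes tested. DESeq2 1.42.0 and limma 3.58.1 were alternatives. The fit was also run on simulated counts for co-exposure against sham at day 1, and the outcome is not given here. Simulated libraries differed only in depth, random spread and set changes, so that run does not bear on muscle transcripts or other shared library effects. No 2 libraries of a group agreed within sampling noise.

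Same-numbered replicates were checked for pairing. Correlations of their deviations ran from -0.250 to 0.479 over 42 pairs. In every pair of groups at least 1 was under 0.1, other than day 4 sham and co-exposure (0.352, 0.153 and 0.253), whose member calls the replicate block left as they were.

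The members and gene lists were chosen with earlier results of these data known. The text names all members. From each other list it names up to 3 genes with the smallest adjusted p against sham among those past 0.05, and from all genes the 3 most correlated with each tested member. Other marker genes are given as levels or counts of calls. Counting error only is covered by the depth limit of 3 counts, 0.309 to 0.649 CPM by library.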

Additional observations from a re-analysis of the deposited data

Results flagged for a closer look

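Muc5ac in ozone day 1 replicate 3 stood at 3.46 CPM, far below the other 3 libraries of its group (5.23 to 5.43 CPM). Agr2 in sham day 1 replicate 2 stood at 0.890 CPM against 4.36 to 4.91 CPM in the other 3, in the library with 607 CPM of Acta1. Foxa3 in carbon black day 1 replicate 2 stood at 0.282 CPM, from 2 counts, against 0.578 to 0.618 CPM. A gap of this size was looked for in 40 sets of 4 libraries, and chance gives it in about 1 in 20 of them. The rise of Slc26a4 after ozone differed between days, by 1.28 on the log2 scale (adjusted p = 0.0309, edgeR).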

How the results depend on the processing

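Results were recomputed without the filter on low counts, with a stricter filter (at least 1 CPM in 4 libraries), with median-of-ratios scaling, DESeq2, limma-voom, only the compared groups in the fit, a replicate block within day, leaving out each library in turn, and, added after seeing the data, leaving out the 4 libraries above 50 CPM of Acta1. Under these, apart from single libraries left out, 125 recomputed counts of members past the threshold stayed within 1.5 times and 3 did not. Comparisons that called 0 members and again called 0 are among the 125, so part of that number comes from empty results. With only the compared groups the count was 0 for carbon black at day 4 and 0 for the ozone difference between days, and with DESeq2 it was 1 for the day 4 interaction; the cause was not tested. Leaving out single libraries gave 2 to 4 for ozone against sham at day 1 and at day 4. Co-exposure against sham gave 4 to 5 at day 1 and 3 to 4 at day 4. The range was 0 to 1 for carbon black at day 4 and for the ozone difference between days. At day 4 co-exposure gave 0 to 3 against ozone and 2 to 4 against carbon black, and the interaction gave 0 to 3.

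Single genes changed direction only among differences that had not passed. The labels do not say that replicate numbers pair libraries. The correlations of same-numbered libraries do not decide it, because libraries with different numbers were not compared. With the replicate block Bpifb1 after ozone at day 1 was 0.030 and Bpifa1 after co-exposure at day 1 was 0.10, and with limma-voom 0.086 and 0.56. The block ended the calls of Spdef after day 1 co-exposure (0.77, adjusted p = 0.0574, edgeR) and Muc5ac after day 4 ozone (0.95, adjusted p = 0.0517), and changed no other member call against sham. Without the 4 libraries high in Acta1, Muc4 after carbon black at day 1 was -0.029, Tff2 after ozone at day 1 was -0.37 and Bpifa1 after carbon black at day 4 was -0.26. With single libraries left out, values ran from -0.40 to 0.27 for Bpifa1 after co-exposure at day 1, -0.029 to 0.21 for Muc4 and carbon black at day 1, -0.20 to 0.29 for Tff2 and ozone at day 1, -0.41 to 0.11 for Bpifb1 and ozone at day 1, -0.0083 to 0.52 for Slc26a4 and carbon black at day 4, -0.25 to 1.31 for Bpifa1 and carbon black at day 4 and -0.0083 to 0.31 for Muc5ac and co-exposure at day 1.

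Agr2 after ozone at day 1 passed with DESeq2 (1.45, adjusted p = 0.0211) and with only the compared groups (adjusted p = 0.0482), and Agr2 after ozone at day 4 missed with limma-voom (adjusted p = 0.0502). Spdef after day 1 co-exposure also missed with no low-count filter (adjusted p = 0.0711), limma-voom (0.0769) and only the compared groups (0.105). Counts over all genes moved more than those of members: co-exposure against ozone at day 4 called 0 genes in edgeR, 154 with the replicate block, 96 with limma-voom and 493 with DESeq2, and at day 1 0 and 23 in edgeR and DESeq2. The day 4 interaction called 204 genes, 64 with no filter, 879 with the block, 0 with only the compared groups and 964 with DESeq2, and that of day 1 called 218, 898 with only the compared groups and 531 with DESeq2. Carbon black called 247 at day 1 and 31 at day 4, 7 at each with only the compared groups, and 18 and 178 at day 4 with limma-voom and DESeq2. With only the compared groups co-exposure at day 4 called 3175 against sham and 2373 against carbon black (5073 and 5687 in the full fit), and the ozone and carbon black differences between days 1125 and 2 (631 and 14), the latter 37 with DESeq2.

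Depth limits Foxa3, Spdef and Muc5ac, with 1 to 11, 10 to 36 and 12 to 46 counts per library.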
